A study of Mus musculus with 8 samples.

Results

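The regenerative and fetal-like genes of the gut lining considered here, Clu, Ly6a, Anxa1, Il1rn, Spp1 and Sprr1a (6 in all), were followed on 8 microarrays of mouse small intestine. The 6 genes were chosen by name with earlier results of these data known, so their counts beside those of all genes are descriptive only. Their probes were found by matching the accession on the array to the gene symbol. This gave 7 of 39429 probes (2 for Anxa1 and 1 for each other gene) and 6 of 21319 genes tested. All 6 passed the filter on dim probes, which asked for a signal well above background on at least 2 arrays. Clu, Ly6a, Anxa1 and Sprr1a were well above background on all 8 arrays, and Il1rn and Spp1 on 5 of 8.

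All mice were C57BL/6J Min/+, a strain with a truncated copy of the Apc tumour suppressor gene that develops intestinal adenomas, so no group had intact Apc. Mice of the Western male and Western female groups ate a diet modified from AIN-93G, rich in fat and poor in fibre, vitamin D, calcium and folate, in which milk supplied 66.4% of the fat and plant oils 33.6%. Mice of the Control male and Control female groups ate unmodified semisynthetic AIN-93G. The labels give feeding as 18 months and no age. Each of the 4 groups has 2 arrays (4 per diet), each array holds RNA of 1 to 3 mice, and whether both arrays of a group came from separate mice is not stated, so the spread behind each p-value may be partly technical. Whole tissue was used, so more cells of a type and more RNA per cell cannot be told apart.

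After injury, crypt cells of the intestine can take up a state that resembles the fetal gut, in which the coactivators Yap and Taz act with TEAD transcription factors. Clu marks the revival stem cells described after radiation damage, and Ly6a (Sca-1) and Anxa1 mark the fetal-like epithelium of healing colitis. Spp1, Il1rn and Sprr1a rise in parts of the same programme, but immune cells also make Spp1 and Il1rn, and stratified epithelia make Sprr1a.

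Several libraries stood apart. The Y-linked RNA helicase gene Ddx3y measured -0.46 on the library labelled Control female 1, between -7.56 and -6.91 on the other female arrays and between -1.04 and -0.67 on the male arrays, all as log2 signal relative to the 75th percentile of the array, the scale used throughout. The deposited file of that library also carries the abbreviation of the other diet in its name. It was kept where its label places it. For each gene followed, the diet difference over both sexes is given with and without it. Other differences are given without it for some of these genes only. Results for related genes and marker lists, the order of group means, spreads over arrays and nearest genes are given only with it. Control female 2 had 75.7% of its probes well above background, against 55.1% to 61.9% on the other arrays. Summed markers of smooth muscle (9 of 9 measured) reached 51.7 times the 75th percentile on Control male 1, against 6.80 to 21.3 on the other arrays. All 11 epithelial markers were measured, and their summed signal was 1991 to 2523 on Western arrays and 2160 to 2538 on control arrays. In sums of markers, here and below, the brightest markers weigh most. Slide 1 held array 1 of every group, slide 2 held Western male 2, and slide 3, scanned on another day, held Western female 2, Control male 2 and Control female 2.

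The study compared the Western diet with the control diet. Of the 6 genes, 5 had a higher mean on the Western diet and 1 a lower mean, against 40.4% of all genes higher. Anxa1, Spp1, Clu and Ly6a had log2 differences between 0.97 and 1.60, Sprr1a had 0.13 and Il1rn had -0.33. By limma with Benjamini-Hochberg adjustment over all genes, 0 of the 6 and 0 of 21319 genes (0%) passed an adjusted p of 0.05. At an unadjusted p of 0.05, 1 of the 6 was higher (Anxa1), against 0.647% of all genes higher and 3.62% lower. The median of the 6 differences was 1.11, and that of all genes was -0.058. With other scalings of the arrays the median of all genes was 0.047 (quantile normalization) and 0.341 (each array scaled on its median). The share of all genes higher therefore depends on the scaling. Red cell markers (5 measured) also had higher means on the Western diet, 5 of 5 with a median of 1.38 and 4 with an unadjusted p under 0.05. They summed to 53.3 to 150.1 times the 75th percentile on Western arrays and 16.4 to 73.1 on control arrays, and their part in the members' levels was not tested. Within slide 1, which holds 1 array of each group, all 6 genes were higher on the Western diet (median of all genes -0.047). Its Control female array is the library labelled Control female 1.

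**Figure D1:**
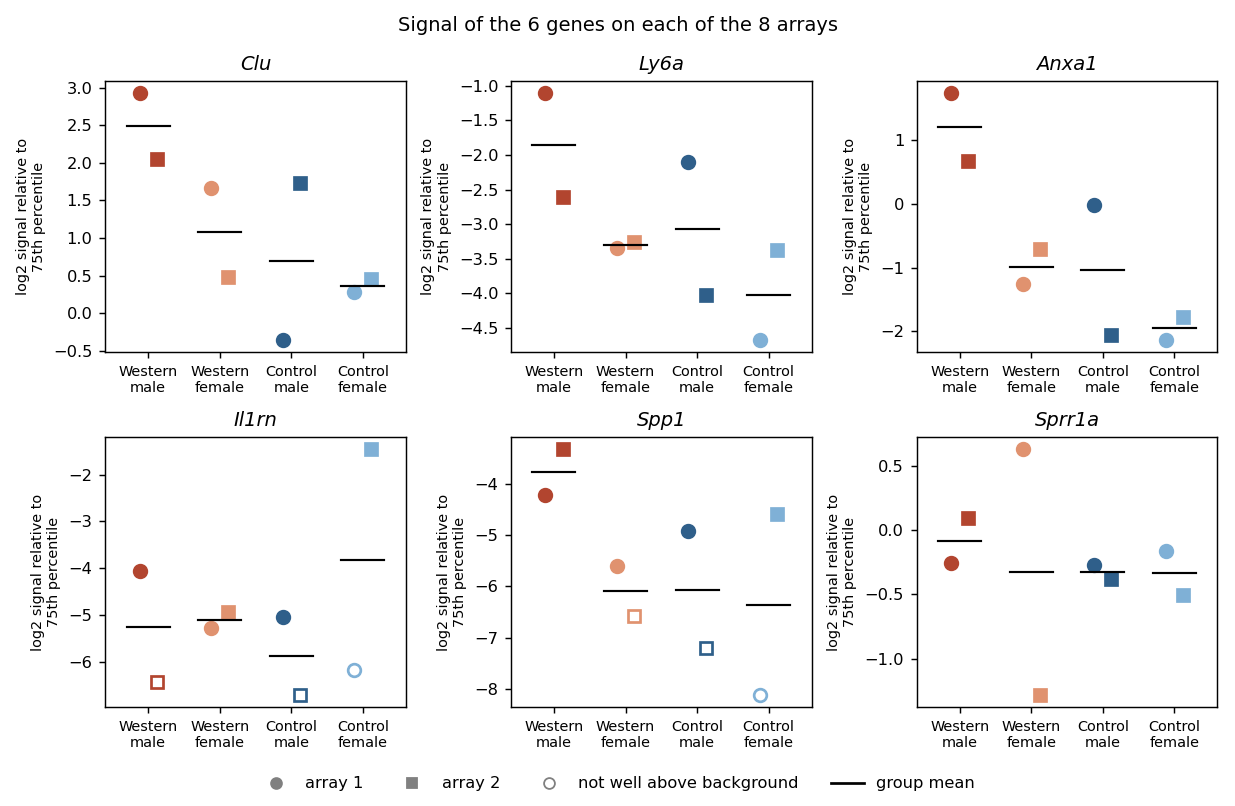
Log2 signal relative to the 75th percentile of the array (vertical axis) for each of the 6 genes, by group. Circles are array 1 and squares array 2 of a group, open symbols are not well above background, and black lines are means of 2 arrays. Western male arrays were highest for Clu, Anxa1 and Spp1, while for Il1rn the highest value was on Control female 2.

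RefSeq promoter windows (GRCm38.p6, 250 bases before to 50 after a start site) were found for 4 of the 6 genes. Those of Anxa1 and Sprr1a are shown for comparison. In absolute size, these genes had the largest and the smallest diet difference over both sexes with all arrays. The first window of Spp1, a secreted ligand not well above background on 3 arrays, is also shown, and those of Il1rn are not. The capitals mark matches to GGAATG (the core of TEAD sites), TGANTCA (AP-1), the interferon-stimulated response element or TATAAA, searched on both strands, and no matches overlapped in these windows.
Anxa1, chr19:20390622-20390921, minus strand: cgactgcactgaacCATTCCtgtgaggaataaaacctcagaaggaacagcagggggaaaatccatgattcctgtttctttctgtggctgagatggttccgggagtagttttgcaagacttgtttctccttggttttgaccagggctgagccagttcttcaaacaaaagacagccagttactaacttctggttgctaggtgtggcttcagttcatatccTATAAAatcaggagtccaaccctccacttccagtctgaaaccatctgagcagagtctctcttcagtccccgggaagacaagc
Spp1, chr5:104434861-104435160, plus strand: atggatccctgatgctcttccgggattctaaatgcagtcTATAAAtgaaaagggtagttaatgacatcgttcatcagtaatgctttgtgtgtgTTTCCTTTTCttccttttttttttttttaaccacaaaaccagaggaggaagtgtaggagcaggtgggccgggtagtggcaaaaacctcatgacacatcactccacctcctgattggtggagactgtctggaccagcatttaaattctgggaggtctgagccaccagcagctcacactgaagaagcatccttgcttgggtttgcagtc
Sprr1a, chr3:92485832-92486131, minus strand: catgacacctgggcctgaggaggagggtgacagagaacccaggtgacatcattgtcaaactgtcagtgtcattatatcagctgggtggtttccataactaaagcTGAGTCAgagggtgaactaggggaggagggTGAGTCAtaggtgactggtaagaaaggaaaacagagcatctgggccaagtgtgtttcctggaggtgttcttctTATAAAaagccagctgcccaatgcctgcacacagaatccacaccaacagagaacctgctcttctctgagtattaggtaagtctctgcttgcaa

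The Anxa1 window held 1 TEAD match at -236 from the start and TATAAA at -32. The Sprr1a window held 2 AP-1 matches, at -146 and -116, and TATAAA at -43, and the first Spp1 window held 1 response element match at -157 and TATAAA at -211. Of 32851 promoter windows, 14.7% held GGAATG, 7.81% held TGANTCA, 3.44% held the response element and 13.6% held TATAAA. The letters CTTTGNT (TCF), TTCNNNGAA (STAT), GGGANNTCC (NF-kB) and GGGCGG were also searched and were not in these 3 windows. These matches describe the letters and were not tied to binding or to the measured levels.

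Anxa1 encodes annexin A1, a calcium-dependent membrane-binding protein that restrains inflammation through formyl peptide receptors. It measured 1.74, 0.67, -1.26 and -0.70 on Western male 1, Western male 2, Western female 1 and Western female 2. On Control male 1, Control male 2, the library labelled Control female 1 and Control female 2 it measured -0.02, -2.05, -2.13 and -1.77. Both Western male arrays lay above every control array, and Control male 1 lay above both Western female arrays, so the diets overlapped. The mean was 0.11 on the Western diet and -1.49 on the control diet, a 3.04-fold difference (log2 1.60 ± 0.50 SE, n = 4 arrays per diet, 95% interval 0.37 to 2.84). Its unadjusted p was 0.0189 and its adjusted p 0.995 by limma. When arrays were scaled on their median instead, Anxa1 had a log2 difference of 2.003 with an adjusted p of 0.00741, and 123 of 21319 genes passed. That scaling moved the median of all genes by 0.399, and relative to that median Anxa1 stood at 1.66 under both scalings. The spread that limma shares across genes then had 5366 prior degrees of freedom (its weight), against 2.01 as reported. The SE was 0.468 for each of the 6 genes, so their own spreads counted little in that adjusted p. Leaving out the library labelled Control female 1 gave 1.515 (unadjusted p = 0.0463 by limma), leaving out Control female 2 gave 1.69, and the difference was 2.11 without Control male 1. The unadjusted p was 0.0636 by limma without Western male 1 and 0.0627 without Western female 2, so the unadjusted call was lost.

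A second Anxa1 probe was dimmer, with well-above-background signal on 7 arrays, and gave a mean of -2.98 on the Western diet and -4.52 on the control diet, a difference of 1.53. After centring each probe on its own mean, both probes differed by a root mean square of 0.32 over the 8 arrays. Fibroblast markers (8 of 8 measured) summed to 1.79 to 3.69 times the 75th percentile on Western arrays and to 1.39 to 13.1 on control arrays, with the 13.1 on Control male 1, the control array where Anxa1 was highest. Their part in the Anxa1 level was not tested.

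Ly6a encodes Sca-1, a surface protein anchored by a lipid that marks fetal-like epithelium and is also carried by T cells, endothelium and blood stem cells. It measured -1.11, -2.60, -3.35 and -3.26 on Western male 1, Western male 2, Western female 1 and Western female 2. It measured -2.10, -4.03, -4.67 and -3.38 on Control male 1, Control male 2, the library labelled Control female 1 and Control female 2. Western male 1 was the highest and the library labelled Control female 1 the lowest, and Control male 1 ranked second. The mean was -2.58 on the Western diet and -3.55 on the control diet (log2 difference 0.97 ± 0.58 SE, n = 4 arrays per diet, adjusted p = 0.995 by limma). Leaving out the library labelled Control female 1 gave 0.64, leaving out Control male 1 gave 1.45, leaving out Control male 2 gave 0.48 and leaving out Control female 2 gave 1.29. T cell markers (7 of 9 measured; Trac and Trbc1 were not analysed here) summed to 50.1 to 85.1 on Western arrays and 48.6 to 90.1 on control arrays. Endothelial markers (5 of 8 kept, without Tek, Tie1 and Emcn) summed to 2.87 to 3.95 on Western arrays and 3.71 to 6.34 on control arrays.

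Clu encodes clusterin, a secreted chaperone. It measured 2.92, 2.06, 1.67 and 0.48 on Western male 1, Western male 2, Western female 1 and Western female 2. It measured -0.35, 1.73, 0.29 and 0.45 on Control male 1, Control male 2, the library labelled Control female 1 and Control female 2. Both Western male arrays lay above every control array, while Control male 2 lay above both Western female arrays. Control male 1, which was high for Anxa1 and Ly6a, was the lowest array for Clu. The mean was 1.78 on the Western diet and 0.53 on the control diet (log2 difference 1.25 ± 0.54 SE, n = 4 arrays per diet). The 95% interval of the diet difference ran from -0.058 to 2.56 (unadjusted p = 0.0580, adjusted p = 0.995 by limma). Leaving out the library labelled Control female 1 gave 1.21, leaving out Control male 1 gave 0.73, leaving out Control male 2 gave 1.77, and the difference within slide 1 was 2.33.

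Spp1 encodes osteopontin, a secreted ligand of integrins and of Cd44. It measured -4.21, -3.31, -5.60 and -6.58 on Western male 1, Western male 2, Western female 1 and Western female 2. It measured -4.91, -7.21, -8.13 and -4.59 on Control male 1, Control male 2, the library labelled Control female 1 and Control female 2. Western female 2, Control male 2 and the library labelled Control female 1 were not well above background. The mean was -4.92 on the Western diet and -6.21 on the control diet (log2 difference 1.28 ± 0.91 SE, n = 4 arrays per diet, adjusted p = 0.995 by limma). Leaving out the library labelled Control female 1 gave 0.40, leaving out Control female 2 gave 2.17, and with another background correction (normexp) it was 0.22. With quantile normalization it was 1.99 (unadjusted p = 0.0118 by limma). Macrophage markers (8 of 10 kept, without Cd163; Cd68 was not analysed here) summed to 40.6 to 56.6 on Western arrays and 43.0 to 64.1 on control arrays. Gene by gene, 5 of the 8 had a higher mean on the Western diet and 3 a lower mean (median log2 difference 0.08). In females 6 were higher and 2 lower (median 0.56), and in males 1 was higher and 7 lower (median -0.30). Their part in the Spp1 level was not tested.

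Il1rn encodes the interleukin 1 receptor antagonist, which blocks the receptor for interleukin 1 alpha and beta. It measured -4.06, -6.43, -5.26 and -4.92 on Western male 1, Western male 2, Western female 1 and Western female 2. It measured -5.04, -6.70, -6.17 and -1.45 on Control male 1, Control male 2, the library labelled Control female 1 and Control female 2. Control female 2, the array with the largest share of probes above background, was the highest by over 2 log2 units, and Western male 2, Control male 2 and the library labelled Control female 1 were not well above background. The mean was -5.17 on the Western diet and -4.84 on the control diet (log2 difference -0.33 ± 1.14 SE, n = 4 arrays per diet, adjusted p = 0.999 by limma). Leaving out Control female 2 gave 0.85, and leaving out the library labelled Control female 1 gave -1.51. Neutrophil markers (7 of 10 kept, without S100a8, Ngp and Cxcr2) summed to 13.2 to 24.9 on Western arrays and 15.5 to 37.2 on control arrays, with the 37.2 on Control male 1.

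Sprr1a encodes a small proline-rich protein of the cornified envelope of stratified epithelia. It measured -0.25, 0.09, 0.64 and -1.29 on Western male 1, Western male 2, Western female 1 and Western female 2. It measured -0.27, -0.38, -0.16 and -0.50 on Control male 1, Control male 2, the library labelled Control female 1 and Control female 2. The 4 control arrays lay close together, while the Western female arrays were the highest and the lowest of all 8. The mean was -0.20 on the Western diet and -0.33 on the control diet (log2 difference 0.13 ± 0.42 SE, n = 4 arrays per diet, 95% interval -0.91 to 1.16, adjusted p = 0.999 by limma). It was -0.35 without Western female 1, 0.61 without Western female 2, 0.21 without the library labelled Control female 1 and -0.07 with scan day as a block. Squamous epithelial markers (7 of 10 kept, without Dsg3, Dsc3 and Krtdap) summed to 2.38 to 3.43 on Western arrays and 2.57 to 3.92 on control arrays.

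**Figure D2:**
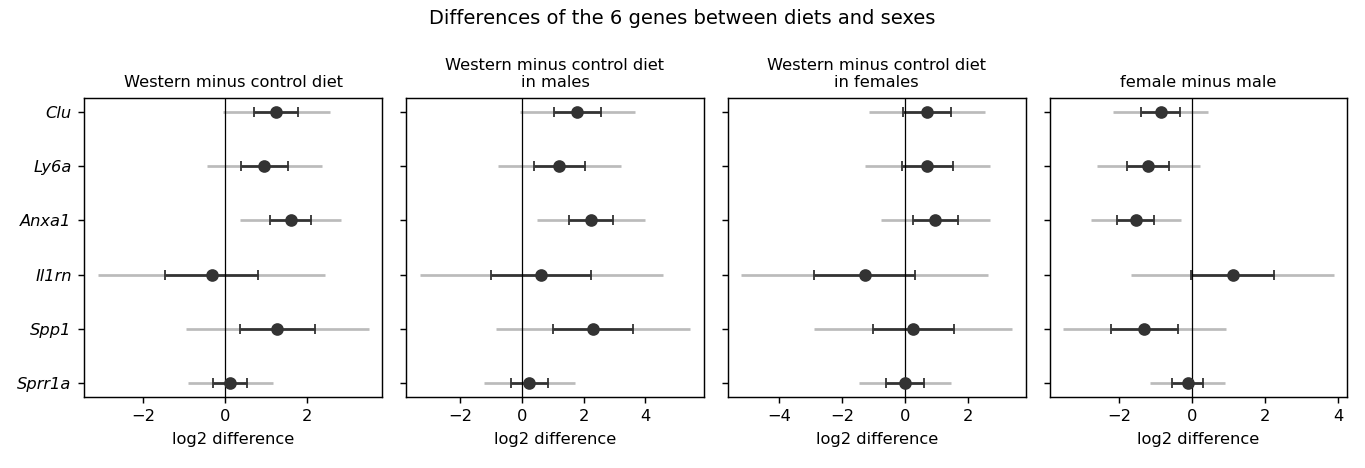
Log2 differences of the 6 genes (horizontal axis) for Western minus control diet over both sexes, in males and in females, and for female minus male. Points are limma estimates, capped bars ± 1 SE and grey lines 95% intervals. For Western minus control the interval of Anxa1 lay above 0 over both sexes and in males, and for female minus male it lay below 0.

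Within males, all 6 genes had a higher mean on the Western diet (48.6% of all genes), with log2 differences between 0.24 (Sprr1a) and 2.30 (Spp1). Of the 6, 4 (Clu, Anxa1, Spp1 and Sprr1a) had both Western arrays above both control arrays, against 12.1% of all genes. For Sprr1a the nearest arrays differed little (-0.253 against -0.268). By limma 0 of 6 passed (0% of all genes), and at an unadjusted p of 0.05 Anxa1 was the 1 gene counted (log2 2.24 ± 0.71 SE, n = 2 arrays per diet, adjusted p = 0.9997), against 0.582% of all genes higher. That call did not hold with scan day as a block (unadjusted p = 0.0541 by limma). It did not hold without Western male 1 (unadjusted p = 0.108 by limma) or without Control male 2 (unadjusted p = 0.0736 by limma). Clu was 3.48-fold higher (log2 1.80 ± 0.76 SE), with an unadjusted p above 0.05. Spp1 was well above background on 1 of the 2 Control male arrays, so its log2 difference of 2.30 ± 1.29 SE rests partly on a signal at background, and with normexp it was 0.50. Its unadjusted p was 0.125 by limma with all arrays and 0.0363 without the library labelled Control female 1, which left the difference itself at 2.30. The values depended on the control array: without Control male 1 the differences of Clu, Ly6a, Anxa1 and Spp1 were 0.76, 2.18, 3.26 and 3.45, and without Control male 2 they were 2.84, 0.25, 1.22 and 1.15.

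Within females the differences were below those in males with all arrays, for Clu (0.71 ± 0.76 SE), Ly6a (0.72 ± 0.82 SE), Anxa1 (0.97 ± 0.71 SE), Spp1 (0.27 ± 1.29 SE) and Sprr1a (0.01 ± 0.60 SE), and Il1rn had -1.28 ± 1.61 SE (n = 2 arrays per diet). Thus 5 of the 6 were above 0, against 36.8% of all genes. None of the 6 had an unadjusted p under 0.05 by limma, against 5.09% of all genes, and 0% of all genes passed after adjustment. Clu, Ly6a and Anxa1, 3 of the 6, had both Western arrays above both control arrays, against 9.57% of all genes. Clu and Anxa1, 2 of the 6, did so in both sexes, against 1.94% of all genes. In females the nearest Western and control arrays differed little for Clu (0.48 against 0.45) and Ly6a (-3.35 against -3.38). Without the library labelled Control female 1 the differences were 0.63 for Clu, 0.07 for Ly6a, 0.79 for Anxa1, -1.50 for Spp1 and -3.64 for Il1rn. With Control female 2 left out they were 0.79, 1.36, 1.15, 2.04 and 1.08 in the same order of genes, so for Spp1 and Il1rn the sign depended on which control array was used. Without the library labelled Control female 1, Il1rn had an unadjusted p of 0.0195 and an adjusted p of 0.174 by limma. Clu had 0.11 without Western female 1. Within slide 1 the only Control female array is the library labelled Control female 1. Against it, all 6 genes were higher on the Western diet in females, with 1.38 for Clu, 1.32 for Ly6a and 2.53 for Spp1 (median of all genes -0.030). Within slide 3 this held for 3 of the 6, with 0.03 for Clu, 0.12 for Ly6a and 1.07 for Anxa1, against -1.99 for Spp1, -3.465 for Il1rn and -0.78 for Sprr1a.

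The diet difference in females minus that in males was below 0 for all 6 genes with all arrays, between -2.03 (Spp1) and -0.24 (Sprr1a), against 34.9% of all genes above 0 and a median of all genes of -0.136. It was -1.27 ± 1.01 SE for Anxa1 and -1.09 ± 1.07 SE for Clu. None had an unadjusted p under 0.05 by limma (lowest 0.254, Anxa1), against 1.62% of all genes, and 0% of all genes passed after adjustment, so no difference between the sexes in the diet effect was shown. Within slide 1, 3 of the 6 were above 0, namely Spp1 (1.83), Sprr1a (0.78) and Ly6a (0.32). That slide has the library labelled Control female 1 as its only Control female array. Without the library labelled Control female 1, 2 of the 6 had an unadjusted p under 0.05 by limma, namely Spp1 and Il1rn. Spp1 then had -3.80 (unadjusted p = 0.0311, adjusted p = 0.395 by limma) and Il1rn -4.26 (unadjusted p = 0.0281, adjusted p = 0.377 by limma). The share of all genes under that threshold was then 10.2%, and 2 genes passed after adjustment.

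The study also compared the sexes. Averaged over the diets, 5 of the 6 genes had a lower mean in females than in males, and Il1rn had a higher mean, against 62.3% of all genes higher. Anxa1 averaged -1.47 in females and 0.09 in males, a 2.94-fold lower level in females (log2 -1.55 ± 0.50 SE, n = 4 arrays per sex, unadjusted p = 0.0215, adjusted p = 0.906 by limma). It was the 1 gene of 6 at an unadjusted p of 0.05, against 1.19% of all genes lower, and 0% of all genes passed after adjustment. Ly6a averaged -3.67 in females and -2.46 in males (log2 difference -1.21 ± 0.58 SE), and Spp1 -6.22 in females and -4.91 in males (-1.31 ± 0.91 SE). Clu averaged 0.72 in females and 1.59 in males (-0.87 ± 0.54 SE). No gene of the 6 had female and male arrays that did not overlap, against 1.96% of all genes higher and 1.03% lower. With median scaling, Anxa1 had -1.82 in this comparison and passed, as did 218 genes in all. That fit again had 5366 prior degrees of freedom, so the genes' own spreads counted little. Without the library labelled Control female 1 the differences were -1.465 for Anxa1, -0.88 for Ly6a, -0.43 for Spp1 and -0.83 for Clu, and without Western male 1 they were -1.29, -0.83, -1.54 and -0.65. The call of Anxa1 at an unadjusted p of 0.05 did not hold when 1 of 3 arrays was left out, with an unadjusted p of 0.0516 by limma for the library labelled Control female 1, 0.0711 for Western male 1 and 0.0693 for Western female 1. Il1rn had 1.11 with all arrays, and 2.28 without the library labelled Control female 1 (unadjusted p = 0.0217, adjusted p = 0.251 by limma). Within slide 1 it had -1.17, and Sprr1a had 0.50 there. Red cell markers were lower in females for 5 of 5, with a median of -1.11 and 4 with an unadjusted p under 0.05, and their part in these differences was not tested.

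In the order of group means, Western males came first for Clu, Ly6a, Anxa1, Spp1 and Sprr1a and Control females last for the same 5 genes. For Clu, the Western male mean of 2.49 ± 0.61 (SD, n = 2 arrays, as for all group means here) was followed by 1.08 ± 0.84 in Western females, 0.69 ± 1.47 in Control males and 0.37 ± 0.12 in Control females. Only the first step of Clu separated the arrays of neighbouring groups. For Anxa1, 1.21 ± 0.76 in Western males was followed by -0.98 ± 0.39 in Western females, -1.03 ± 1.44 in Control males and -1.95 ± 0.25 in Control females, and again only the first step separated the arrays. For Ly6a, -1.85 ± 1.06 in Western males was followed by -3.07 ± 1.36 in Control males, -3.31 ± 0.06 in Western females and -4.03 ± 0.91 in Control females. Only the last step separated the arrays there, and narrowly (-3.35 against -3.38). For Spp1, the -3.76 ± 0.64 of Western males lay clear of the other groups, whose means ran from -6.36 to -6.06 with overlapping arrays. For Sprr1a, Western males had -0.08 ± 0.25. Control males (-0.324 ± 0.08), Western females (-0.325 ± 1.36) and Control females (-0.333 ± 0.24) followed with nearly equal means. Il1rn group means ran from -5.87 ± 1.18 in Control males to -3.81 ± 3.34 in Control females, and every step overlapped.

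**Figure D3:**
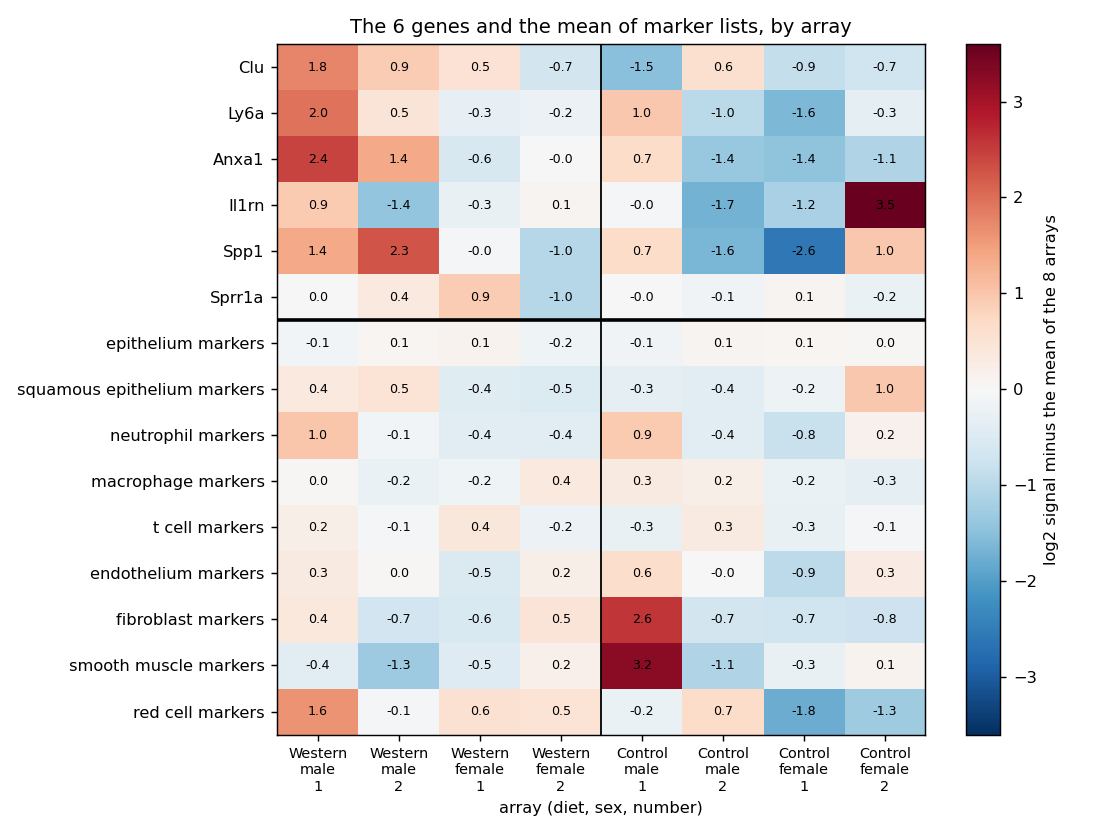
Log2 signal of the 6 genes (upper rows) and mean log2 signal of marker lists (lower rows) on each array (columns), each minus its mean over the 8 arrays, with the values printed. Clu, Ly6a and Anxa1 were highest on Western male 1, Il1rn on Control female 2, and the fibroblast and smooth muscle markers on Control male 1.

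The 6 genes varied more between arrays than most genes. The SD over the 8 arrays was 1.11 for Ly6a, 1.10 for Clu, 1.40 for Anxa1, 1.63 for Spp1 and 1.68 for Il1rn, which exceeded the SD of 91.2%, 91.0%, 95.4%, 97.6% and 97.9% of the genes tested. Sprr1a, with an SD of 0.54, exceeded 71.2%. Il1rn and Spp1 were well above background on 5 of 8 arrays, so their SDs rest partly on signals at background. After centring, Ly6a and Anxa1 were the most alike pair of the 6, with a root mean square difference of 0.50 log2 units over the 8 arrays, and Clu and Il1rn the least alike, with 2.02. The remaining pairs ranged from 0.97 to 2.01.

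Among 12397 other named genes well above background on all arrays, the 3 nearest to each member by the same measure were found. For Clu they were Ly6d, a relative of Ly6a in epithelial cells (0.41), the granzyme gene Gzma (0.58) and the metallothionein gene Mt1 (0.61). For Ly6a they were the endothelial gene Ecscr (0.39), Tenm4 (0.41) and the matrix protease gene Mmp10 (0.43). For Anxa1 they were the interferon-induced Ifitm1 (0.43), Tenm4 (0.58) and the phospholipase gene Pla2g5 (0.63). For Spp1 the mast cell protease genes Mcpt4 (0.81), Mcpt1 (0.82) and Mcpt2 (0.87) came nearest, each farther than any gene named here for the other members. They were highest on Western male 1 and Spp1 on Western male 2. Spp1 itself was well above background on 5 of 8 arrays only. For Il1rn they were Scarb1 (0.55), Adgrg3 (0.71) and Olfm1 (0.73), which like it were highest on Control female 2. For Sprr1a they were Elk4 (0.23), Rprl2 (0.23) and Ccbe1 (0.25), which like it were highest on Western female 1.

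Lists of genes related to the 6 by pathway had median diet differences between -0.94 and 0.34, and 0 of their genes passed after adjustment. Of 21 further fetal and regenerative genes, 20 were measured, 10 higher and 10 lower on the Western diet, with a median log2 difference of 0.04 against -0.058 for all genes. Of these, 0 passed after adjustment, and 1 of 20 had an unadjusted p under 0.05 (higher), against 0.647% of all genes higher and 3.62% lower. That gene was the annexin gene Anxa8 (log2 0.99 ± 0.27 SE, 2.69 in males and -0.70 in females). The next by p were Emp1, an epithelial membrane protein (-0.31 ± 0.20 SE), the growth factor Areg (-0.68 ± 0.45 SE) and the keratin gene Krt7 (0.27 ± 0.20 SE). Of 23 Yap target genes 19 were measured, 5 higher and 14 lower, with a median of -0.19 and 0 past adjustment. Fjx1 (-1.09 ± 0.37 SE) was the 1 of 19 with an unadjusted p under 0.05 (0.0254, lower), against 3.62% of all genes lower, followed by Amotl2, which feeds back on Yap (-0.34 ± 0.14 SE), Ptpn14 (-0.30 ± 0.18 SE) and the matrix gene Ccn1 (-0.27 ± 0.20 SE). Of 14 genes of the Hippo pathway 6 were higher and 8 lower (median -0.09). Tead3, a DNA-binding partner of Yap, was lower on every Western array than on any control array (-0.42 ± 0.14 SE), as were 2.29% of all genes, and Sav1 (0.29 ± 0.16 SE) and Tead1 (-0.35 ± 0.26 SE) followed.

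**Figure D4:**
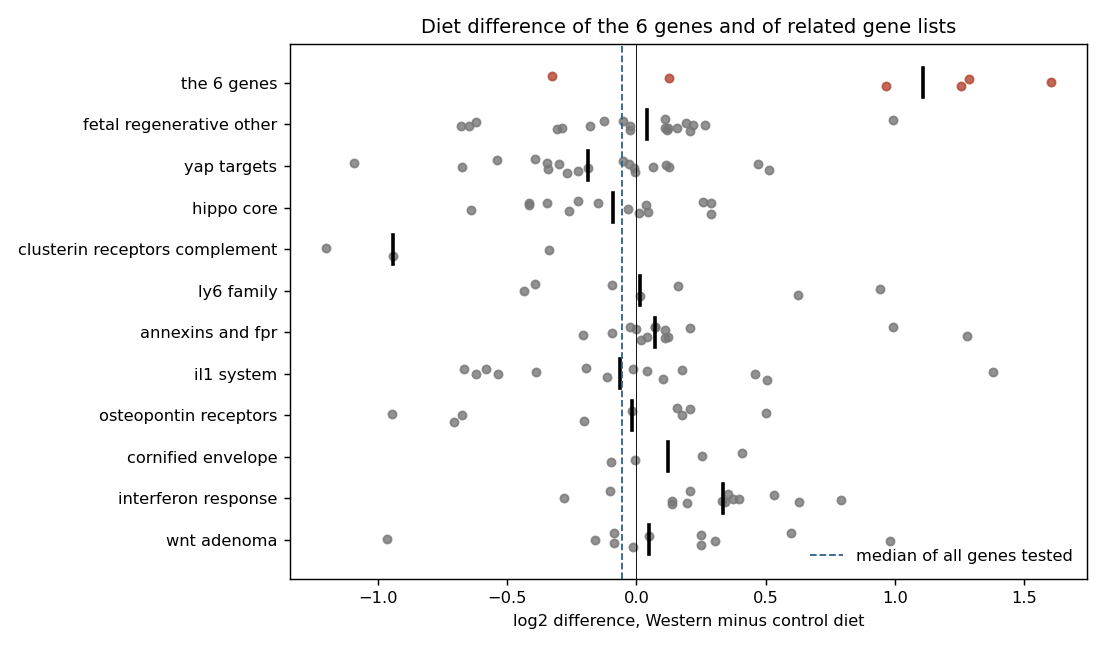
Log2 difference, Western minus control diet (horizontal axis), of the 6 genes and of measured genes in related lists (rows). Each point is a gene, black bars are list medians and the dashed line is the median of all genes tested. The median of the 6 genes was 1.11 and that of the further fetal and regenerative genes 0.04.

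Relatives and partners of each gene differed among themselves. In the Ly6 family 7 of 10 were measured (4 higher, 3 lower), with Ly6d at 0.94 ± 0.43 SE, the Ly6a neighbour Ly6c1 at 0.62 ± 0.37 SE and Ly6h at -0.39 ± 0.32 SE. Ly6 and Sprr genes have close paralogs, so their probes may share signal. Of the other annexins, their S100 partners and formyl peptide receptors, 14 of 15 were measured (10 higher, 4 lower, median 0.07). After Anxa8, the smallest p belonged to Anxa10 (1.28 ± 1.24 SE) and Anxa3 (0.21 ± 0.24 SE). In the interleukin 1 system 14 of 15 were measured (6 higher, 8 lower, median -0.06), led by the cytokine gene Il1b (-0.54 ± 0.30 SE), the inflammasome gene Nlrp3 (-0.67 ± 0.41 SE) and the interleukin 33 receptor gene Il1rl1 (1.38 ± 0.95 SE).

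Of 9 osteopontin receptor genes 4 were higher and 5 lower (median -0.02), and the integrin gene Itgb6 (-0.94 ± 0.30 SE) was the 1 of 9 with an unadjusted p under 0.05 (0.0187, lower), against 3.62% of all genes lower, followed by Itga5 (-0.70 ± 0.41 SE) and Itgb1 (-0.20 ± 0.16 SE). Of 8 clusterin receptor and complement genes 3 were measured, and all 3 had lower means, Vtn (-1.20 ± 0.79 SE), Vldlr (-0.34 ± 0.23 SE) and Cd59a (-0.94 ± 0.78 SE). Of 13 cornified envelope genes 4 were measured, with Sprr2b at 0.41 ± 0.20 SE, Lor at 0.25 ± 0.40 SE and Ppl at -0.10 ± 0.28 SE. Interferon response genes, which like Ly6a can be induced by interferon, were higher for 12 of 14 measured (median 0.34). Of the 14, 0 had an unadjusted p under 0.05 by limma, against 0.647% of all genes higher and 3.62% lower. The median was 0.52 in males and 0.13 in females. Irf7 (0.35 ± 0.14 SE) was higher on every Western array than on any control array, as were 0.863% of all genes, and Rsad2 (0.63 ± 0.32 SE) and Oas1a (0.34 ± 0.18 SE) overlapped. Of 12 Wnt target genes of adenomas 11 were measured, 6 higher and 5 lower (median 0.05), with Rnf43 at 0.31 ± 0.19 SE, Wif1 at 0.98 ± 0.65 SE and Znrf3 at -0.97 ± 0.91 SE.

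**Figure D5:**
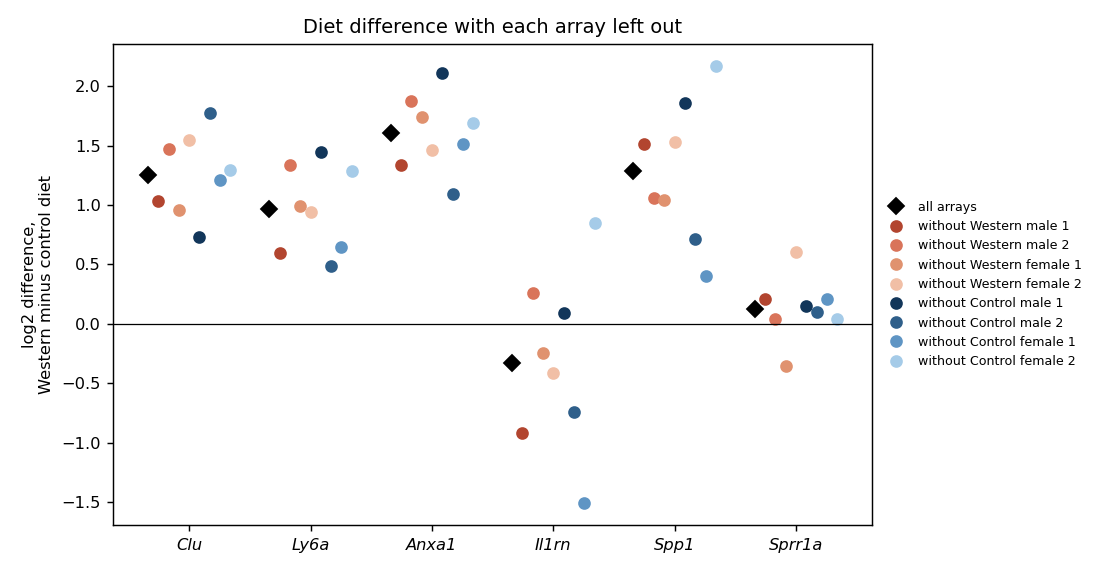
Log2 difference, Western minus control diet (vertical axis), of each of the 6 genes with all arrays (black diamonds) and with each array left out in turn (circles). Clu, Ly6a, Anxa1 and Spp1 stayed above 0 whichever single array was left out, with lowest values of 0.73, 0.48, 1.10 and 0.40.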

How the data were processed

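Each deposited file held 1 one-colour (Cy3) Agilent array, design 026655; per the file headers, the scans were read with Feature Extraction 10.7.3.1. Its processed signal, an intensity on a linear scale that the software had already corrected for background, was the deposited value used. The labels' protocols name an RNeasy Mini kit for RNA. Left out were 1377 control spots and 94 to 216 outlier spots per array. Repeated probes were averaged, and the deposited intensities were turned into log2 signals relative to the 75th percentile of the array's non-control spots (486 to 902). Accessions matched a RefSeq list (assembly GRCm38.p6) for 26412 of 39429 probes. The headers name another build (mm9), so the only coordinates given are those of RefSeq promoter windows on GRCm38.p6. A probe needed signal well above background on 2 or more arrays, and the brightest stood for its gene. No member's spot was saturated.

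Differences were fitted with limma 3.58.1 (R 4.3.3) as 4 group means over 8 arrays, with Benjamini-Hochberg adjustment over 21319 genes. The fit was also run on simulated data with the same spread for every gene, which does not test it at the spread of these data. Errors are SE. The number of arrays limits the precision. No mean spot signal is in the files, so the normexp alternative (offset 50) used median signals. Named genes were all members, the 3 (or 4) genes with the smallest p for diet of each pathway list, and the 3 nearest genes by root mean square difference. The members and lists were chosen with earlier results of these data known.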

Additional observations from a re-analysis of the deposited data

Results flagged for a closer look

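Each of the 6 genes was examined on each diet and in each sex, 24 sets of 4 arrays in all. In 3 sets the gap between an extreme array and the nearest of the others, as a share of the range of the set, exceeded Dixon's 95% critical value, which chance alone also exceeds in a small share of sets. Clu measured 1.67 on Western female 1, above the other female arrays (gap 0.859 of the range). Ly6a measured -4.67 on the library labelled Control female 1, below the other female arrays (0.915), and this is the library whose Y-linked signal went against its label. Anxa1 measured -0.02 on Control male 1, above the other control arrays (0.832), and this is the array with the highest fibroblast and smooth muscle markers.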

How the results depend on the processing

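Clu, Ly6a, Anxa1 and Spp1 kept a higher mean on the Western diet, over both sexes, under all alternatives that gave a value. Within slide 1 the Clu difference was 2.33. With median scaling Anxa1 had 2.003 and 123 genes passed for diet, in a fit with 5366 prior degrees of freedom against 2.01 as reported. Quantile normalization turned the split of unadjusted diet calls to 60.3% higher of 759, against 15.2% of 910 as reported, median scaling to 48.2% of 1006 and normexp to 30.4% of 671. Of the 6 genes, 3 had an unadjusted p under 0.05 for diet with quantile normalization (3.56% of all genes). This held for 2 with normexp (3.15%) and 4 with median scaling (4.72%), against 1 as reported (4.27%). With quantile normalization Ly6a had 1.39 (unadjusted p = 0.0208 by limma). Leaving out the library labelled Control female 1 raised the unadjusted diet calls to 3196 and the adjusted calls in females to 397, and leaving out Western male 2 lowered the unadjusted diet calls to 580. Anxa1 had 1.34 for diet without Western male 1 (unadjusted p = 0.0636 by limma) and 1.465 without Western female 2 (unadjusted p = 0.0627 by limma), so the unadjusted call was lost. Signs turned for the diet difference of females minus males of Ly6a (0.304 with quantile normalization, 0.0129 with median scaling) and Sprr1a (0.269 with median scaling, 0.160 with scan day as a block). They also turned for Il1rn for diet (0.0710 with median scaling) and in males (-0.0509 with normexp), for Spp1 in females (-0.0510 with normexp) and for Sprr1a in females (-0.00968 with normexp, -9.36e-05 with quantile normalization). With scan day as a block Sprr1a had -0.0718 for diet, -0.152 in males and 0.0710 for female minus male. Within slide 1 signs also turned for Il1rn (0.94 for diet, 0.91 in females, -1.17 for female minus male), for females minus males of Spp1 (1.83), Sprr1a (0.78) and Ly6a (0.32), and for female minus male of Sprr1a (0.50). Within slide 3 they turned for Spp1 (-1.99) and Sprr1a (-0.78) in females. The cause was not tested. Leaving out 1 array at a time, Il1rn ranged from -1.51 to 0.85 for diet, -0.56 to 1.80 in males, -3.64 to 1.08 in females, -4.26 to 0.46 for females minus males and -0.074 to 2.28 for female minus male. Sprr1a ranged from -0.35 to 0.61 for diet, then in females from -0.95 to 0.97, for females minus males from -1.20 to 0.72 and for female minus male from -0.61 to 0.35. Spp1 in females ranged from -1.50 to 2.04, and Ly6a for females minus males from -1.46 to 0.47. Il1rn and Spp1 had no value where signal well above background was asked of all arrays, and within slide 3 only the diet difference in females could be computed. Deviations of same-numbered arrays from their group means had correlations over genes from -0.119 to 0.351, the highest between the males of both diets. Array number goes with slide, so this does not settle whether arrays were paired. With the replicate block Anxa1 had an unadjusted p of 0.0225 and an adjusted p of 0.984 by limma, and 1013 genes had an unadjusted p under 0.05.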

Other observations

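Anxa8, an annexin gene of squamous and fetal-like epithelium, measured -0.18 and -0.92 on the Western male arrays and -3.50 and -2.98 on the Control male arrays, and the groups did not overlap. In females it measured -3.68 and -3.34 on the Western arrays, against -3.11 on the library labelled Control female 1 and -2.50 on Control female 2, so both Western arrays were lower. The diet difference in females minus that in males was -3.39 ± 0.53 SE, with an adjusted p of 0.815 by limma, which did not pass.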
